A study of Homo sapiens with 2 samples.

Results

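IFIT2, IFIT3 and IFI44 are interferon-induced genes whose RNA was measured in UACC62 cells, an established human melanoma line, after depletion of FOSL1. They were taken as the probe sets with these gene symbols, which gave 3 genes and 3 probe sets among the 14884 named genes and 53427 probe sets of the array. They were chosen by their log2 differences between these same arrays, so those differences are given below as a description and carry no test. Cells received an siRNA specific for FOSL1 (1 array) or a non-targeting siRNA (1 array), and both cultures were harvested after 3 days. Both groups thus share the melanoma line, the medium and exposure to an siRNA, and no untransfected culture was analysed here. FOSL1 is a FOS-family protein that pairs with JUN proteins as the transcription factor AP-1. The labels give no siRNA sequence, and they list no second FOSL1 siRNA condition and no rescue. A response to loss of FOSL1 and a response to the duplex itself or to its other targets therefore cannot be told apart. With 1 array per condition no replicate error exists and no p-value can be given for any difference.

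Interferons are secreted proteins that cells release when sensors detect foreign or misplaced nucleic acid. Binding to their receptors activates JAK kinases, which switch on transcription factors. With IRF9 these form a complex that binds a promoter element called the interferon-stimulated response element (ISRE). IFIT2 and IFIT3 belong to a family of cytosolic proteins with tetratricopeptide repeats that bind foreign RNA and restrict translation. IFIT3 is known to stabilise IFIT1 in the complexes these proteins form, and IFIT2 has been linked to apoptosis. The ISRE is also bound by IRF3, so that IFIT genes can be switched on by sensing itself, without secreted interferon. IFI44 is a cytoplasmic protein induced by type I interferon, and its function is less well understood. Melanoma cells are known to respond to interferon, which has been used in treatment of the disease.

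To show the promoter element through which such genes respond, the bases before the annotated starts of IFIT3 and IFI44 were taken from RefSeq (GRCh38.p14) and searched for the ISRE core, spelled as GAAA, any 2 bases and GAAA or, on the other strand, TTTC, any 2 bases and TTTC. Windows of 250 bases that end just before the start were used. IFIT3 has 2 annotated starts in the table, IFI44 has 2 that lie 42 bases apart, and IFIT1, a relative that differed little on the arrays, is shown beside them. Each line runs 5′ to 3′ on the plus strand, and capitals mark the ISRE core.
IFIT3, first start, chr10:89327747-89327996, plus strand: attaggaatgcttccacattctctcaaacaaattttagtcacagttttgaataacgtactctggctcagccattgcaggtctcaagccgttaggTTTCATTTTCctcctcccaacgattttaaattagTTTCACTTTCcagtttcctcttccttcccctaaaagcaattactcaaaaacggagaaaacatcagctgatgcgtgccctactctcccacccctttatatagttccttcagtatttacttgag
IFIT3, second start, chr10:89332279-89332528, plus strand: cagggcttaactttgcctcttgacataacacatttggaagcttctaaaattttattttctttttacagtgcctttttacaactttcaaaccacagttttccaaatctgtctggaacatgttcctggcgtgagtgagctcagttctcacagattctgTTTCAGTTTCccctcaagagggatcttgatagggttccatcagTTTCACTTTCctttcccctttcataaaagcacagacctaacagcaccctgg
IFI44, first start, chr1:78649539-78649788, plus strand: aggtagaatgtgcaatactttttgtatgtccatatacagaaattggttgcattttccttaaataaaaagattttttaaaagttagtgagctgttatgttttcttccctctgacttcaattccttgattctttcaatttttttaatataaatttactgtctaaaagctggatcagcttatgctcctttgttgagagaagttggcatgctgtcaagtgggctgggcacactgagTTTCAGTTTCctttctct
IFIT1, chr10:89392373-89392622, plus strand: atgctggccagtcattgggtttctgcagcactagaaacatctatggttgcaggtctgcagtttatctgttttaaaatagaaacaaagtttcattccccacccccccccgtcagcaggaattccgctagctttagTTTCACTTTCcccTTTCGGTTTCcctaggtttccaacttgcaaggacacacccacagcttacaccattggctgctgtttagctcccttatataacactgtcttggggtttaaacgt

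All 4 windows of IFIT3 and IFI44 held the core. At the first start of IFIT3 the matches spanned bases 156 to 147 and 122 to 113 before the start, and at the second start 94 to 85 and 51 to 42. IFI44 had 1 match, at bases 18 to 9 before its first start. Over the IFIT and IFI44 families, 7 of 8 windows held the core, those of IFIT1, IFIT3, IFIT5, IFI44 and IFI44L. IFIT2 had no promoter entry in the source used here, so its promoter was not searched. The IFIT1B window held none, and the 2 windows of IFI44 overlap and show the same match. Among all 35116 promoter windows of this length, 3.02% held the core. The same windows of the 2 families held 0 matches to the AP-1 site TGANTCA, which was found in 6.57% of all windows. They also held 0 matches to the NF-kB site GGGNNTTCC, found in 5.78% of all windows. Both strands were searched for each, and a missing match says only that these letters are not in these windows.

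**Figure D1:**
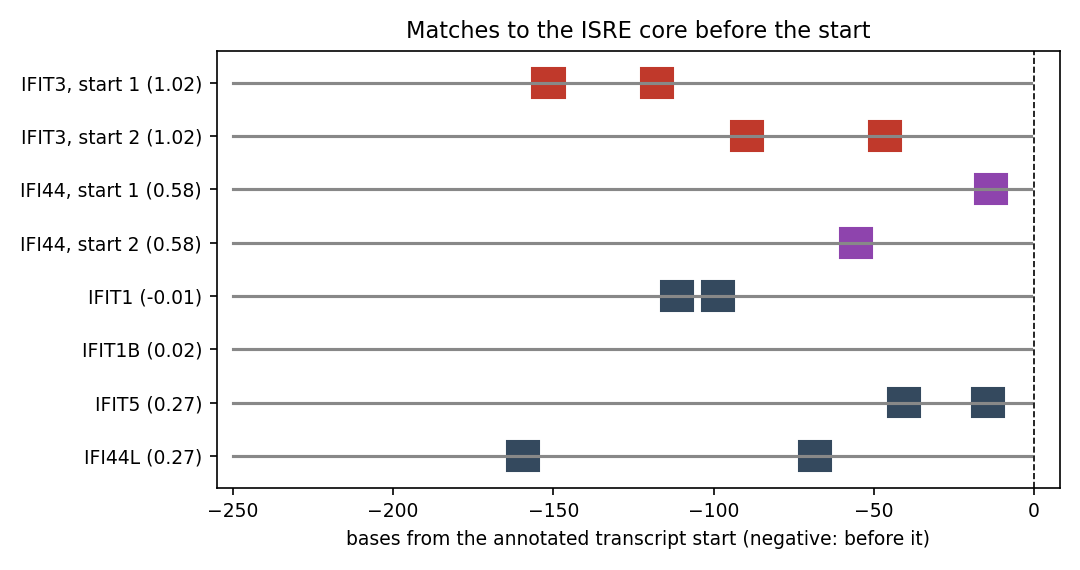
Matches to the ISRE core (blocks) in the 250 bases before each annotated start, for the genes of the IFIT and IFI44 families in the promoter table, with the log2 difference of each gene (FOSL1 siRNA minus control siRNA) in parentheses. IFIT3, IFI44, IFIT1, IFIT5 and IFI44L carry blocks although their differences run between -0.01 and 1.02, and the IFIT1B window is empty.

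The targeted gene was lower where the labels place the knockdown. FOSL1 had a log2 value of 10.38 in the array with FOSL1 siRNA and 11.90 in the array with control siRNA, a difference of -1.53, or 2.88-fold lower. Both arrays had a median of 6.885 over all probe sets, and sorted values differed by at most 0.0301, so a change in total RNA per cell cannot be seen. Of 8 melanocyte markers with a named probe set, 6 were among the brighter genes, meaning those whose mean log2 value reached 8.02, the median over named genes. They included SOX10, MITF, TYR and S100B. PMEL and TYRP1 were among the dimmer genes. None of 5 keratinocyte and epithelial markers was among the brighter genes. The brighter genes also held 1 of 4 leukocyte markers, CD68, 1 of 3 fibroblast markers, LUM, and 1 of 3 endothelial markers, KDR. CD68 had a log2 difference of -0.63, LUM 0.48 and KDR 0.19, and their part in the results was not tested. Over the whole lists, 1 of 4 leukocyte, 1 of 3 fibroblast, 1 of 3 endothelial and 4 of 5 keratinocyte and epithelial markers were above 0. CD14 and LYZ, of monocytes and macrophages, were dim in both arrays.

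IFIT3 had the largest difference of the 3 genes. Its log2 value was 8.69 with FOSL1 siRNA and 7.67 with control siRNA, a difference of 1.02, or 2.02-fold higher. IFI44 had a log2 value of 7.65 with FOSL1 siRNA and 7.06 with control siRNA, a difference of 0.58, or 1.498-fold higher. IFIT2 had a log2 value of 5.93 with FOSL1 siRNA and 5.41 with control siRNA, a difference of 0.52, or 1.43-fold higher. In each gene the array with FOSL1 siRNA held the higher value, and with 1 array a side an overlap of groups cannot be examined. RNA came from whole cultures, so more expressing cells and more RNA per cell cannot be told apart. Each gene was measured by 1 probe set, so no second probe set gives a check within the gene.

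**Figure D2:**
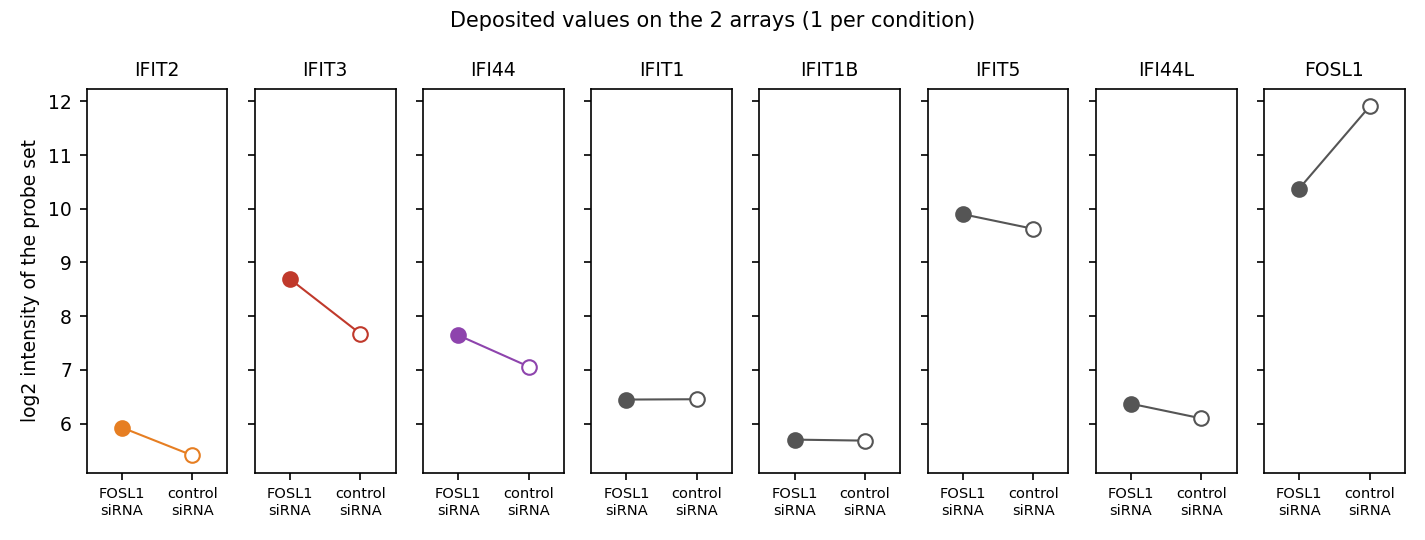
Log2 intensity of the probe set (vertical axis) for IFIT2, IFIT3, IFI44, the other measured IFIT and IFI44 family genes, and FOSL1, with the FOSL1 siRNA array as a filled point and the control siRNA array as an open point. IFIT3 stands at 8.69 with FOSL1 siRNA and 7.67 with control siRNA, and FOSL1 at 10.38 and 11.90.

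The size of these differences can be read against all named genes. At least 2-fold higher were 38 of 14884 named genes (0.255%), IFIT3 among them at rank 37 from the highest, and 13 (0.0873%) were lower by that fold. IFIT3 was also among the 7442 brighter genes, of which 6 (0.0806%) were higher and 3 (0.0403%) lower by 2-fold, whereas IFIT2 and IFI44 were among the dimmer genes. At least 1.5-fold higher were 284 (1.91%). IFI44 ranked 288 and IFIT2 ranked 400, both short of that fold. The differences chose these genes, so their ranks describe them and support nothing further. Dim genes scattered more widely, and the named genes were therefore split by mean log2 value into 4 bins of 3721 genes. In the bin of IFIT3, 2 genes had a larger difference: LRRC17, a secreted leucine-rich repeat protein, at 1.22, and CFI, the protease complement factor I, at 1.09, both named after their values were seen. In the bin of IFI44, 95 genes (2.55%) had a larger difference. In the bin of IFIT2, the dimmest, 136 genes (3.65%) did. IFIT2 was dim, since 10.8% of named genes had a lower mean value, and no detection call was used here to say whether it was above background. The SD of the differences was 0.254 in the bin of IFIT3, 0.269 in that of IFI44 and 0.306 in that of IFIT2.

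**Figure D3:**
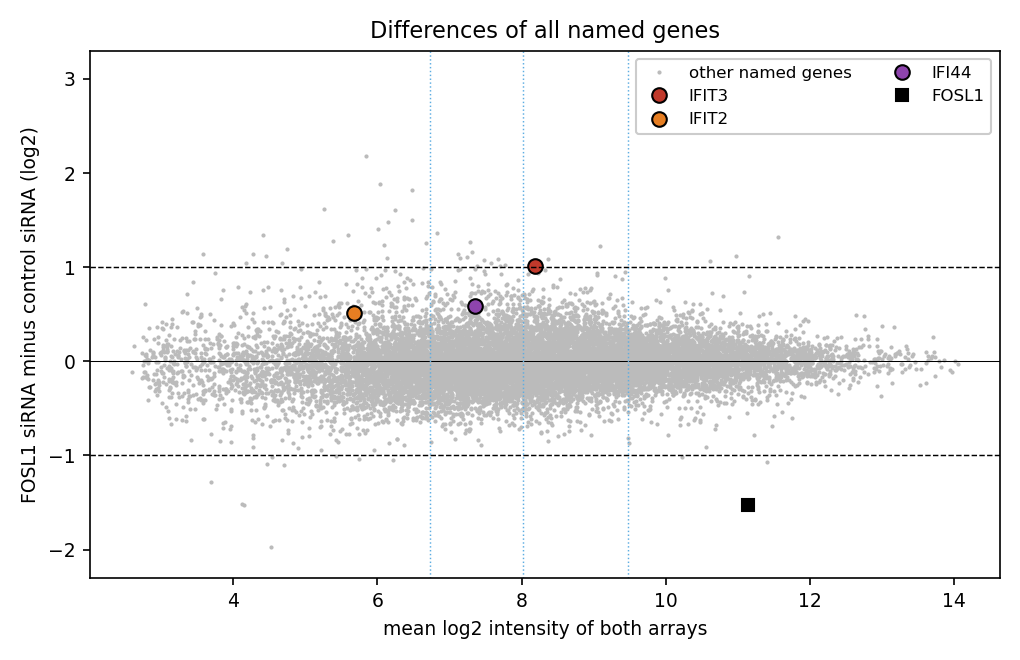
Log2 difference between the FOSL1 siRNA array and the control siRNA array (vertical axis) against mean log2 intensity (horizontal axis) for 14884 named genes, with dashed lines at 2-fold and dotted vertical lines between the 4 bins of brightness. IFIT3 lies on the upper 2-fold line at 1.02, IFI44 at 0.58 and IFIT2 at 0.52, above most genes of similar brightness, and FOSL1 lies at -1.53.

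A measure of technical scatter comes from genes with several probe sets. Over 733 such genes, the difference of the second brightest probe set was subtracted from that of the brightest. The SD of the results was divided by the square root of 2, so that it refers to a single probe set, and was 0.238. It was 0.233 over the 276 of these genes as bright as the 3 genes here. This scatter arises within the same pair of arrays and leaves out variation between cultures.

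The relatives of these genes did not share one difference. IFIT5, an IFIT protein that acts as a monomer, had log2 values of 9.90 with FOSL1 siRNA and 9.63 with control siRNA, a difference of 0.27. IFIT1, which recognises the cap of foreign RNA and binds IFIT3, had 6.45 in both arrays, a difference of -0.01. IFIT1B, its close paralog, had 5.70 with FOSL1 siRNA and 5.68 with control siRNA, a difference of 0.02. IFI44L, the paralog of IFI44, had 6.37 with FOSL1 siRNA and 6.10 with control siRNA, a difference of 0.27. Of these 4 relatives 3 were above 0 and 0 reached 1.5-fold, and 45.4% of all named genes were above 0. Probe sequences were not analysed here, so binding of a probe set to RNA of a related gene was not tested.

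The IFIT genes lie side by side on chromosome 10. In RefSeq gene order, restricted to named genes, they run CH25H, IFIT2, IFIT3, IFIT1B and IFIT1. CH25H, an enzyme that makes an antiviral oxysterol, had a log2 value of 5.28 with FOSL1 siRNA and 5.58 with control siRNA, a difference of -0.30. The named genes directly beside the IFIT2 and IFIT3 pair thus had differences of -0.30 and 0.02. IFI44 lies on chromosome 1 next to IFI44L. The named gene after it, ADGRL2, an adhesion G protein-coupled receptor, had a difference of 0.11, and PTGFR, a prostaglandin receptor before IFI44L, had 0.03.

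Genes nearest to each member in its pair of log2 values were also listed, with distance taken over the 2 arrays. Nearest to IFIT3 were GIN1 (difference 0.93), CD82 (0.93) and MIR3198-1 (0.77), at distances of 0.096 to 0.181. Nearest to IFI44 were RBM26-AS1, GPRIN3 and GPR63, with differences of 0.58 to 0.62. Nearest to IFIT2 were PYDC2, MAX-AS1 and MPZL2, with differences of 0.42 to 0.59. None of these 9 genes is on the interferon lists. Besides the 3 members, those lists hold only 82 of the 14884 named genes, so their absence among 9 genes says little. Moreover, 2 arrays are too few for likeness to mean more than similar values.

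The wider interferon pathway was described by gene lists written from general knowledge with earlier results of these data known. Besides IFIT2, IFIT3 and IFI44, 82 of 158 listed genes had a named probe set. Of these, 43 were above 0 and 39 below, with a median difference of 0.01, beside -0.02 for all named genes. Of the 82 genes, 3 (3.66%) were higher by 1.5-fold or more and 0 were lower by that fold, whereas 1.91% of all named genes were higher and 1.43% lower by that fold. None of the 82 was at least 2-fold higher, where 0.255% of all named genes were. IFIT3 had a larger difference than any other measured gene of these lists. It was chosen for its difference, so this place is a description only.

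Among the upstream parts of the pathway, no interferon gene had a named probe set, and neither did IFNAR1 or IFNAR2, so the ligands and the type I receptor were not analysed here. Of 5 measured receptor chains and kinases, all among the brighter genes, 4 were above 0, where 49.8% of all brighter genes were. IFNGR1, a chain of the interferon gamma receptor, had log2 values of 8.55 with FOSL1 siRNA and 8.05 with control siRNA, a difference of 0.50. JAK2, the kinase bound to the gamma receptor, had a difference of 0.29. Of 8 interferon regulatory factors, 2 were above 0 and 6 below, where 45.4% of all named genes were above 0. IRF7, which amplifies type I interferon production, had a difference of -0.28, and IRF8, a factor of myeloid cells, -0.21. IRF9, a DNA-binding subunit of the complex at the ISRE, had 8.44 with FOSL1 siRNA and 8.47 with control siRNA, which is a difference of -0.03. It was chosen for mention with its values in view.

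The sensors of nucleic acid included the member of the pathway lists with the largest difference outside the chemokines and IFIT3. CGAS, which detects DNA in the cytosol, had log2 values of 7.85 with FOSL1 siRNA and 7.12 with control siRNA, a difference of 0.74, or 1.67-fold higher. Of the 17 measured sensors and adaptors, 8 were above 0 and the median was -0.04. The following sensors were named after their values were seen. Among sensors of double-stranded RNA, TLR3 was at 0.45, IFIH1, the cytosolic sensor MDA5, at 0.33, RIGI at 0.24 and EIF2AK2 at 0.14. DHX58, also called LGP2, was below 0 at -0.13. The adaptor TICAM1, which carries the signal of TLR3, was at -0.40, and MAVS, the adaptor of RIGI and IFIH1, at -0.04.

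**Figure D4:**
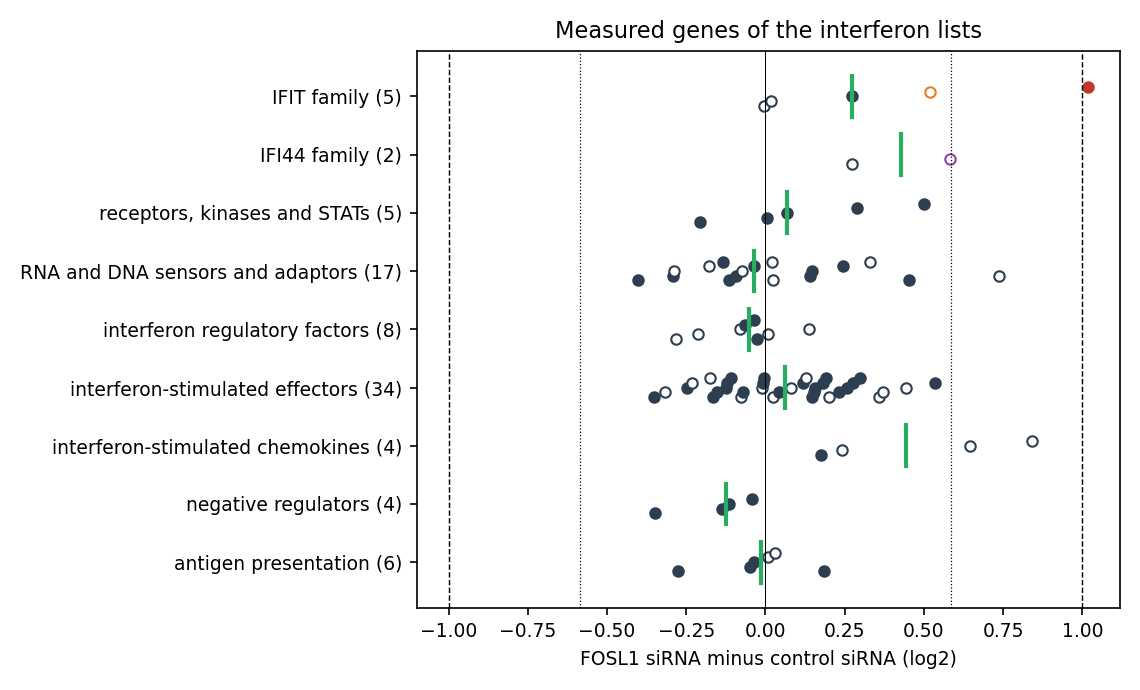
Log2 difference, FOSL1 siRNA minus control siRNA, of each measured gene in the interferon lists (number measured in parentheses), with filled points for brighter genes, open points for dimmer ones and green bars for list medians. Dashed lines mark 2-fold and dotted lines 1.5-fold. IFIT3 (red) is the point past 2-fold, IFIT2 is orange and IFI44 purple, and the 34 effectors spread between -0.35 and 0.54.

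Interferon-stimulated effectors, the genes that respond along with IFIT and IFI44 genes, lay on both sides of 0. Of 55 listed, 34 had a named probe set, of which 19 were above 0 and 15 below. Their median difference was 0.06, and 0 of 34 were at least 1.5-fold higher or lower, where 1.91% of all named genes were higher and 1.43% lower by that fold. Among the 22 brighter ones, 12 (54.5%) were above 0, where 49.8% of all brighter genes were. NMI, an interferon-induced binding partner of transcription factors, had the largest difference, with log2 values of 8.66 with FOSL1 siRNA and 8.13 with control siRNA, a difference of 0.54. DDX60L, a helicase-like antiviral protein, had a difference of 0.44. Further effectors, chosen for mention with their values in view, lay on both sides. PLSCR1, a phospholipid scramblase, had a log2 difference of 0.37, the helicase-like DDX60 0.36, SAMD9L, an antiviral factor, 0.30, HERC5, the ligase that attaches ISG15, 0.20, and XAF1, a promoter of apoptosis, 0.19. ISG15, the ubiquitin-like modifier, had 8.84 with FOSL1 siRNA and 8.85 with control siRNA, a difference of -0.00. BST2, the tethering protein tetherin, had -0.01, MX2, an antiviral GTPase, 0.08, OASL, related to the oligoadenylate synthetases, -0.08, and RSAD2, the enzyme viperin, -0.17. IFITM1, IFITM2 and IFITM3, membrane proteins that block viral entry, had differences between -0.25 and -0.12. The lowest of the 34 were IFI35 at -0.35 and ISG20 at -0.32.

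All 4 interferon-stimulated chemokines were above 0, as were 45.4% of all named genes. CXCL11 is a ligand of CXCR3, a chemokine receptor found on T cells. It had log2 values of 6.79 with FOSL1 siRNA and 5.95 with control siRNA, a difference of 0.84, or 1.79-fold higher. CXCL9, another ligand of CXCR3, had 8.03 with FOSL1 siRNA and 7.38 with control siRNA, a difference of 0.65, or 1.57-fold higher. CXCL10 and CCL5, both named after their values were seen, had log2 differences of 0.24 and 0.17. CXCL11, CXCL9 and CXCL10 were among the dimmer genes, as were IFIT2, IFI44 and CGAS. The share of named genes higher by 1.5-fold or more was 2.85% in the dimmest of the 4 bins and 2.53% in the next.

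The 4 measured genes of 12 listed that restrain interferon signalling were below 0, as were 54.5% of all named genes. All 4 were among the brighter genes, of which 49.8% were above 0. SOCS1, which inhibits JAK kinases, had log2 values of 8.29 with FOSL1 siRNA and 8.64 with control siRNA, a difference of -0.35. USP18, which removes ISG15 and blocks the type I receptor, had a difference of -0.14. TRIM27 and SOCS3, named after their values were seen, had -0.11 and -0.04. Of 22 listed genes of antigen presentation, only 6 had a named probe set, and no HLA, TAP or PSMB gene was among them. These 6 were split, with 3 above 0 and a median of -0.01, where 45.4% of all named genes were above 0. TAPBP, the chaperone tapasin, had a difference of -0.28 and ERAP1, a peptidase that trims peptides, 0.19.

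The ISRE core was also set beside the differences of other genes, as a description with IFIT3 and IFI44 left out. Of the other named genes, 364 held the core before at least 1 start, counted over all their windows. Their median difference was 0.01, against -0.02 for the 10383 genes without it, and 8 of the 364 (2.198%) were at least 1.5-fold higher, against 1.43% of those without it. Of the 17 effectors that held the core, 9 (52.9%) were above 0 and 0 were at least 1.5-fold higher. The share above 0 was 51.9% for the 364 genes and 46.7% for the 10383 without the core.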

How the data were processed

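From each culture 100 ng of total RNA was amplified, labelled with biotin and hybridised to Affymetrix arrays, per the labels' protocols. The authors deposited a value for every probe set on each array, read as log2 intensity because of its range of 2.226 to 14.81; the log base, background correction and normalization are not given in the sources used here. Symbols came from a probe-to-gene table (16098 probe sets with 1 symbol, 0 with several, 37329 with none), matched by Entrez ID to RefSeq GRCh38.p14 (14884 of 14884 genes). The brightest probe set stood for each gene, and no gene was left out for low values. Differences are FOSL1 siRNA minus control siRNA, and called means past 2-fold or 1.5-fold. Named genes were the 3 genes, FOSL1, their families, list members at least 1.5-fold changed (up to 4 per direction, otherwise the 2 largest), the 3 nearest genes in value and the 2 flanking named genes on each side; others were named after their values were seen, as the text says, or as cell type markers. Members and lists were chosen with earlier results of these data known. Alternatives were median centring, quantile normalization, loess trend removal (statsmodels, fraction 0.3), the mean of probe sets, filters on dim genes, another threshold and the list mean. Counting was tested on simulated arrays. The 2 arrays limit the precision of every value.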

Additional observations from a re-analysis of the deposited data

How the results depend on the processing

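Over the 4 that apply to single genes, IFIT3 differed by 1.02 to 1.04, IFI44 by 0.58 to 0.63 and IFIT2 by 0.52 to 0.59. IFIT3 was at least 2-fold higher in all 4, IFI44 at least 1.5-fold higher in 3 and IFIT2 in 1. The mean of probe sets alters none of them by construction. Named genes past 2-fold, counted as higher and as lower, were 38 and 13 with the values as deposited. They were 39 and 13 with median centring, 49 and 9 with quantile normalization, 50 and 9 with the loess trend removed, and 36 and 10 with the mean of probe sets. Among brighter genes only, they numbered 6 and 3 at or above the median brightness, and 3 and 3 at or above the 75th percentile. Fewer genes were counted there, and the share at least 2-fold higher was also smaller, 0.0806% at or above the median against 0.255% of all named genes. At 1.5-fold they were 284 and 213. The effector median of 0.06 was -0.06 over the 8 effectors at or above the 75th percentile, the lowest of the alternatives. It was 0.11 with the loess trend removed, the highest. The median thus changed sign and is too near 0 to have a direction. The arrays had nearly equal distributions, so scaling moved the values of the 3 genes little, although the 2-fold counts shifted. Small shifts are no sign that differences would repeat. No paired analysis was possible because each condition has 1 array. No probe-level background was used here, so values as dim as those of IFIT2 may not be above it.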
